A study of Rattus norvegicus with 60 samples.

Results

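Gene expression in the hippocampus was set against 4 other brain regions of the same rats: nucleus accumbens, amygdala, frontal cortex and striatum. RNA of all 5 regions from 12 adult rats had been hybridised to 60 Affymetrix rat arrays, 1 array per rat and region. The rats came from the selected alcohol non-preferring line NP and from the NP.P congenic line, and both lines had been housed in pairs, accustomed to handling and killed in the morning without a drug or alcohol treatment named in the labels. The hippocampal arrays numbered 12, of which 9 entered the comparison: congenic rats 1, 2, 4, 9 and 10 and NP rats 5, 6, 7 and 12. They were compared with 44 arrays of the other regions: 10 of accumbens, 10 of amygdala, 12 of frontal cortex and 12 of striatum. Both lines were pooled. Each sample was a dissected block of tissue holding many cell types, so a lower level may come from fewer cells of a type or from less RNA per cell, which cannot be told apart here.

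The hippocampus is built around a chain of excitatory neurons. Granule cells of the dentate gyrus send mossy fibres to the pyramidal cells of the CA fields, which pass the signal on within the hippocampus and back to the cortex. It is known for its part in forming memories of places and events, for a layer that makes new granule cells in the adult, and for a high content of corticosteroid receptors. The choroid plexus of the lateral ventricle, which makes cerebrospinal fluid, is attached along its fimbria.

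The 3 other arrays labelled hippocampus were left out because their profile stood apart from the rest. This choice used the same expression values, and the separation of the groups given below depends on it. Prox1, the transcription factor that keeps dentate granule cells in their identity, read 8.91 on the hippocampal array of congenic rat 3 and 8.71 on that of NP rat 8 (log2 signal), against 10.74 to 11.40 on the 9 arrays kept. Foxp2, a transcription factor of striatal and deep cortical neurons, read 8.96 and 10.16 on those 2 arrays, against 5.35 to 6.17. The hippocampal array of NP rat 11 had a hippocampal profile, with Prox1 at 11.12, but a median correlation of 0.976 with the 9 kept arrays, which correlated with each other at 0.986 or more. In the other direction, Prox1 read 10.96 on the array labelled amygdala of congenic rat 3 and 11.13 on the array labelled accumbens of NP rat 8, both left out, while the 44 arrays kept ran from 8.47 to 9.22. Also left out were an accumbens array of congenic rat 9 and an amygdala array of NP rat 6. With all 60 arrays the same comparison gave smaller differences: that of Prox1 was 1.88 in place of 2.34, and that of Foxp2 -2.48 in place of -3.24.

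Among the arrays kept, the lowest of the 9 hippocampal arrays stood above the highest of the 44 others for both Prox1 and Neurod1. Arrays had been left out for such values, so this is no test of the label. On the left-out hippocampal arrays of congenic rat 3 and NP rat 8, Neurod1 read 9.48 and 8.69.

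Of 18625 probe sets with signal above the filter, 7153 were higher in hippocampus than in the mean of the other regions (38.4%) and 4913 were lower (26.4%), at an adjusted p under 0.05 in limma with the rat as a block. Because so many probe sets passed, a larger change was used to name genes. At least 2-fold higher were 154 probe sets (0.827%), and at least 2-fold lower were 157 (0.843%). Counting 1 probe set per gene over 10378 genes, 4185 were higher (40.3%), 2614 were lower (25.2%), and 91 and 97 genes, respectively, passed the 2-fold limit. The counts for each gene list below are to be read against the 40.3% and 25.2% of all genes. Probe sets higher than each of the 4 regions numbered 1241 (6.66%), and 748 were lower than each (4.02%).

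The 2 sets of genes differed in how far they belonged to hippocampus alone. Of the 91 higher genes, 85 were higher than each single region, and 34 of these were at least 2-fold above the region nearest to hippocampus. On 69 of them the 9 hippocampal arrays all lay above all 44 others, a separation that 208 of all 10378 genes showed (2.00%). Of the 97 lower genes, 69 were lower than each region, 19 by 2-fold, and 45 lay below all other arrays, as 122 of all genes did (1.18%). The region nearest to hippocampus was most often the amygdala for the higher genes (39 of 91) and the frontal cortex for the lower genes (46 of 97). These separations rest on the same contrast that chose the genes and are a description of them.

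Prox1, the defining marker of dentate granule cells, was among the 5 highest genes above the filter. Prox1 had a lowest, median and highest log2 signal of 10.74, 11.03 and 11.40 in hippocampus and of 8.47, 8.70 and 9.22 elsewhere. The groups did not overlap, and the difference was 2.34 ± 0.06 (SE), or 5.08-fold (adjusted p = 2.39e-31). It was almost the same against each region, from 2.29 against accumbens to 2.41 against frontal cortex. Neurod1, a basic helix-loop-helix factor needed for granule cells to form, ran from 10.35 through a median of 10.61 to 11.24 in hippocampus and from 8.15 through 8.89 to 10.00 elsewhere. Its difference of 1.58 ± 0.07 (2.99-fold, adjusted p = 1.16e-23) was smallest against amygdala, at 0.86. Pkp2, a plakophilin of cell junctions, had 9.27, 9.58 and 9.98 in hippocampus against 6.50, 7.15 and 7.89 elsewhere, and was 5.42-fold higher (2.44 ± 0.06, adjusted p = 2.67e-31) with no overlap.

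Neurod6, a relative of Neurod1 in pyramidal neurons, had an even level in hippocampus. Its values there ran from 12.72 through 12.77 to 12.89, while the other regions ran from 9.42 through 10.82 to 11.95. It was 4.33-fold higher (2.11 ± 0.08, adjusted p = 1.39e-26), with a difference of 1.05 against frontal cortex and of 2.84 against accumbens. Bhlhe22, another factor of this family, was 3.51-fold higher (1.81 ± 0.08) and nearest in amygdala, where its difference was 0.66.

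The promoters of the leading genes are shown where the RefSeq table held them (build GRCr8), for 2 genes of the basic helix-loop-helix family that were higher and for the dopamine receptor gene Drd1, the lowest gene after Foxp2. Each is a window of 300 bases around the gene's start, most of it upstream, printed 5′ to 3′ on the gene's strand. Capitals mark the hexamer CAGATG, the E-box form that factors of the Neurod family are known to bind, and CAGCTG, a second E-box form, searched on both strands.
Neurod1 (chr3:84770405-84770704, minus strand): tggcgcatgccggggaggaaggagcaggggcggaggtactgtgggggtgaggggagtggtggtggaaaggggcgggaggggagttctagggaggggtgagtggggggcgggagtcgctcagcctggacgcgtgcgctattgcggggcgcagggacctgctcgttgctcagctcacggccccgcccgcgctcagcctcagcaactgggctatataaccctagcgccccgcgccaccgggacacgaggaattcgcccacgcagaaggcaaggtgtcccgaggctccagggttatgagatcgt
Neurod6 (chr4:86180106-86180405, minus strand): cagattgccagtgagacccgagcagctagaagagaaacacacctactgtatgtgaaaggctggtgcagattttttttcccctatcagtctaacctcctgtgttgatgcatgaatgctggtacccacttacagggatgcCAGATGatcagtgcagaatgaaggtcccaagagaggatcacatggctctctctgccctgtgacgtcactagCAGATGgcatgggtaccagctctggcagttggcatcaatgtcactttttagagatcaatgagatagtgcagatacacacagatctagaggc
Drd1 (chr17:10546354-10546653, plus strand): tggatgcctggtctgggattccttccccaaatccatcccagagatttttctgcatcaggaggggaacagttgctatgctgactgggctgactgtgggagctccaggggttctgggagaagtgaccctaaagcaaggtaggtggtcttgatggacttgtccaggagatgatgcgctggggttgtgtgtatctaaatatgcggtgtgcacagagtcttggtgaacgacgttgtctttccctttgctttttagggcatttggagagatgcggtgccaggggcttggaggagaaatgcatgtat

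The Neurod6 promoter held CAGATG at 2 places, and the other promoters printed held neither hexamer. Over the measured genes with a promoter in the table, CAGATG occurred in 933 of 8661 (10.8%). It occurred in 6 of 58 genes at least 2-fold higher in hippocampus (10.3%) and in 16 of 76 at least 2-fold lower (21.1%). CAGCTG occurred in 1382 of 8661 promoters (16.0%), in 9 of 58 higher genes (15.5%) and in 19 of 76 lower genes (25.0%). A hexamer in this window is a description and not a binding site.

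**Figure D1:**
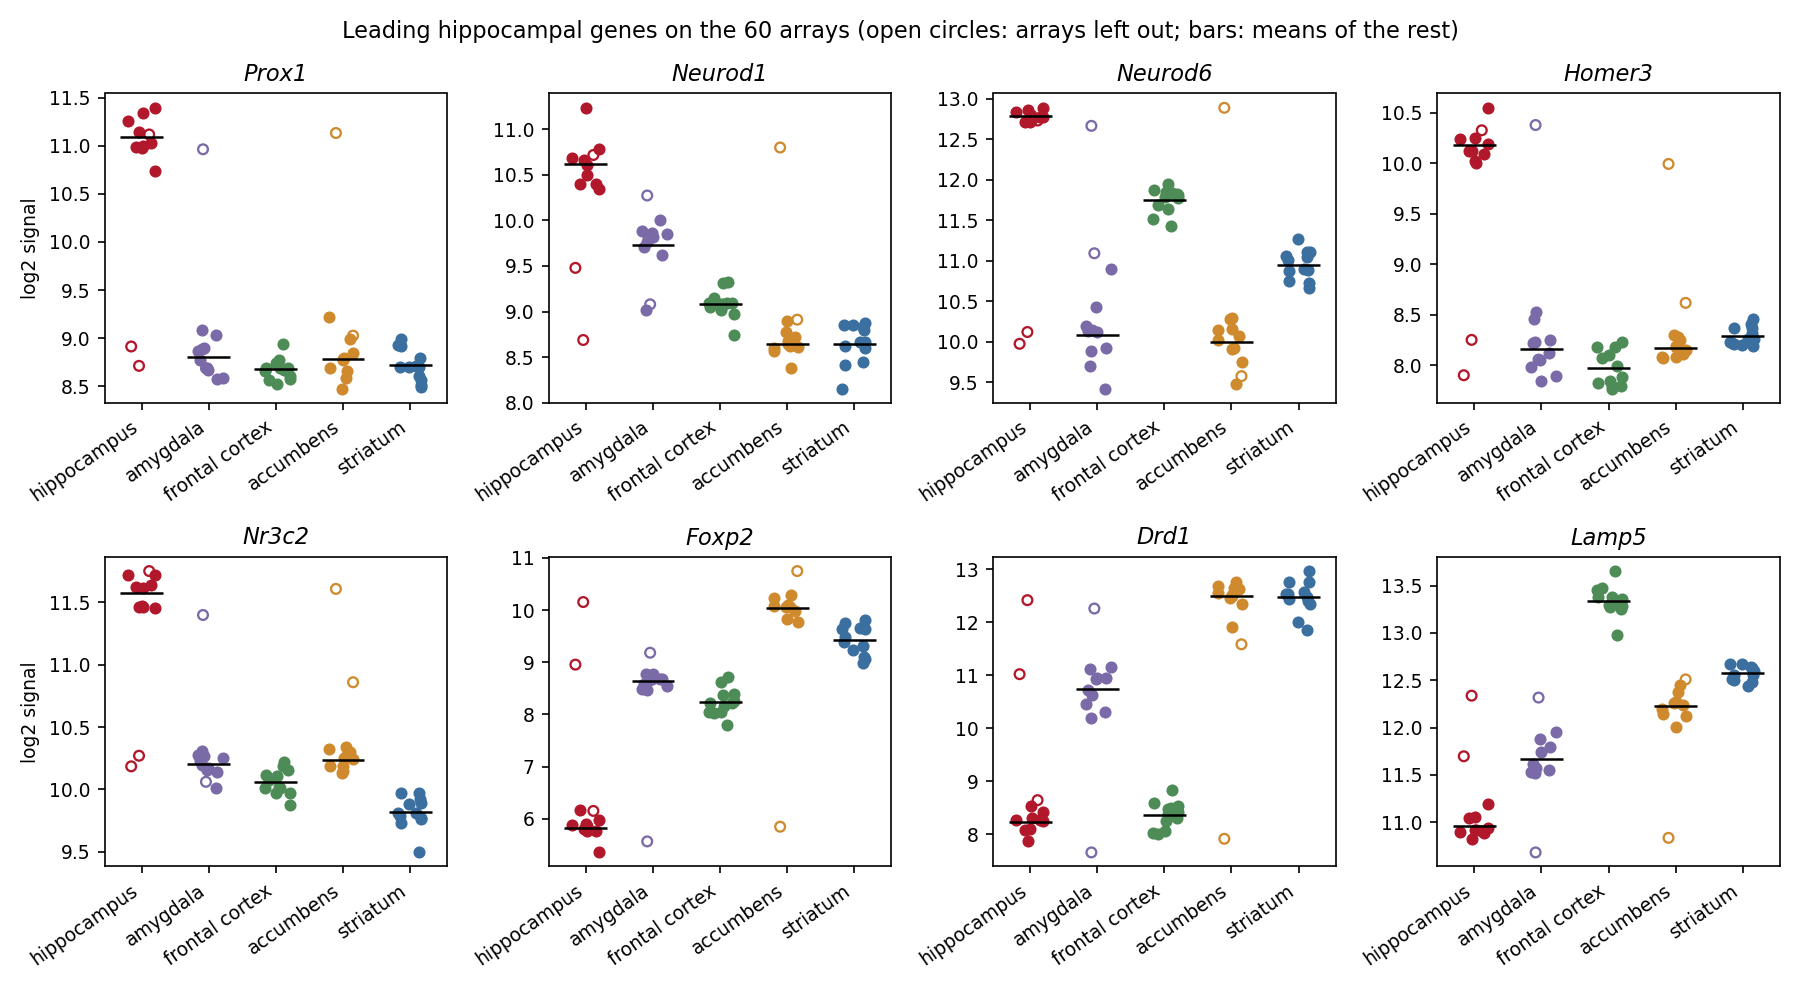
Log2 signal of 8 genes on all 60 arrays by region, with a point per array, open circles for the 7 arrays left out and a bar at the mean of the arrays kept. Prox1, Neurod1, Neurod6, Homer3 and Nr3c2 stand above all other kept arrays in hippocampus, Foxp2 and Lamp5 stand below, and Drd1 in hippocampus overlaps the frontal cortex.

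Among 17 markers listed for dentate granule cells, 13 were on the array with a symbol of their own and 11 passed the signal filter. Of these, 8 were higher in hippocampus, 2 lower and 1 not called, with a median difference of 0.70 against 0.041 over all genes. After Prox1 and Neurod1 came Trpc6, a cation channel (1.24 ± 0.06), Sema5a, an axon guidance protein (0.91 ± 0.05), and Dock10 (0.78 ± 0.03). Trpc6 was higher against 3 regions, while its difference from frontal cortex was -0.04. Calb1, the calcium buffer calbindin, which granule cells hold in quantity, was lower (-0.21).

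Of 24 markers of the CA pyramidal fields, 16 were measured, 14 of them higher and 2 lower, with a median of 0.33. Pou3f1, a POU factor of CA1 pyramidal cells, was higher by 1.31 ± 0.08, with hippocampal values of 10.06, 10.52 and 10.60 against 7.77, 9.41 and 10.21. Grik4, the kainate receptor subunit of CA3 and granule cells, was higher by 1.03 ± 0.05 and did not overlap the other regions (9.60, 9.80 and 10.11 against 8.35, 8.73 and 9.24). Wfs1 of CA1 was higher by 0.84 ± 0.05, but by only 0.14 against amygdala, and Bok, an apoptosis regulator, was higher by 0.84 ± 0.04 without overlap. The 2 lower members were Pcp4, a calmodulin regulator that marks CA2 and is also known in striatum (-0.70 ± 0.05), and Coch, an extracellular matrix protein (-2.27 ± 0.26).

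Transcription factors that build or maintain the hippocampus were higher in 11 of 17 cases, lower in 2 and not called in 4 (median 0.30). Zbtb20 rose by 1.02 ± 0.07, Lhx2 by 0.83 ± 0.05 and Emx2 by 0.81 ± 0.06. These factors are known to pattern the hippocampal field in the embryo, and here their groups overlapped. Nr2f2 was higher than 3 regions but lower than amygdala by 1.17, and its mean difference was 0.81. The lower factors were Tbr1 (-0.53), of deep cortical neurons, and Meis2 (-1.76 ± 0.05), a homeobox factor of striatal neurons, which lay below every other array.

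Several genes most specific to hippocampus were weak elsewhere and so fell under the signal filter, which was set on the mean of all 60 arrays. In the fit without the filter, 34 of 3839 further genes were at least 2-fold higher (0.886%) and 7 at least 2-fold lower (0.182%). They are described apart because a gene dim in 4 regions enters this group only by being bright in hippocampus. A pair of serotonin receptors was among them. Htr5b, the 5-HT5B receptor, ran from 8.88 through 9.10 to 9.35 in hippocampus against 5.53, 6.22 and 6.77 elsewhere, a difference of 2.90 ± 0.05 (7.44-fold, adjusted p = 3.43e-38). Htr1a, the inhibitory 5-HT1A receptor of pyramidal cells, ran from 8.75 to 9.04 against 6.78 to 7.71, a difference of 1.68 ± 0.05.

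Further genes of this kind are known from hippocampal fields. Fibcd1, a CA1 marker that encodes an acetyl-binding membrane receptor, had 9.50, 9.67 and 9.99 against 6.41, 6.67 and 8.03 (2.83 ± 0.07, 7.13-fold, adjusted p = 4.35e-33). Ntf3, the neurotrophin NT-3, which granule cells make, had 9.10, 9.52 and 9.78 against 6.33, 6.75 and 8.17 (2.49 ± 0.06, 5.60-fold, adjusted p = 2.50e-32). Klk8, the serine protease neuropsin of pyramidal cells, was 4.02-fold higher (2.01 ± 0.05), with 7.62 to 8.44 against 5.69 to 6.21. None of these 5 genes, with Htr5b and Htr1a counted, overlapped between groups. Of the 34 genes at least 2-fold higher under the filter, 17 did not overlap. Gna14, a G protein alpha subunit, and Prss35, a serine protease, were also apart, by 2.23 ± 0.07 and 1.89 ± 0.07. These genes under the filter were singled out after their values were seen. Of the listed CA and dentate markers under the filter, only Fibcd1 was higher. The CA markers Cacng5 (-0.54 ± 0.06) and Spink8 (-0.16 ± 0.05) were lower, and Iyd was not called (-0.07). Both dentate markers there, Tdo2 (-0.16 ± 0.04) and Pdzd2 (-0.20 ± 0.05), were lower.

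Glutamate receptor genes differed by subunit. Of 16 ionotropic subunits and auxiliary proteins measured, 9 were higher in hippocampus, 4 lower and 3 not called (median 0.13). Over all genes, 40.3% were higher and 25.2% lower. Grin2a, the NMDA receptor subunit GluN2A, had 10.28, 11.06 and 11.38 against 8.08, 10.07 and 11.06 (1.12 ± 0.16, 2.18-fold), and Grin2b was higher by 0.57 ± 0.11. A second probe set of each was not called, at -0.0002 for Grin2a and 0.01 for Grin2b, so both rises rest on 1 of 2 probe sets. Grin1, the subunit shared by all NMDA receptors, had a difference of 0.03 and was not called.

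AMPA receptor subunits split. Gria1 was higher by 0.70 ± 0.05 and Gria2 by 0.13, while Gria3 and Gria4 were lower (-0.30 and -0.37). The auxiliary proteins, which set where and how long AMPA receptors open, split too: Cacng8, the TARP gamma-8 known from hippocampus, was higher by 1.05 ± 0.10 and Cnih2 by 0.73 ± 0.04. Cacng3 was lower (-0.50 ± 0.04) and Cacng2, stargazin, was not called (0.01). Cnih2 was the one among them whose hippocampal arrays all lay above the rest (13.02 to 13.32 against 11.75 to 12.98).

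Of 8 metabotropic receptor genes and Homer scaffolds, 5 were higher and 3 lower (median 0.23), against 40.3% and 25.2% of all genes. Homer3, a scaffold that ties these receptors to calcium stores, had 10.00, 10.12 and 10.55 against 7.76, 8.18 and 8.53, a 4.08-fold difference (2.03 ± 0.05, adjusted p = 2.28e-32) that ran from 1.89 to 2.21 over the 4 regions. Homer1, its relative, was lower (-0.44 ± 0.04). Grm2 was higher by 0.69 ± 0.08 but not against frontal cortex (-0.10), and Grm4 was lower (-0.85 ± 0.06).

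Of 8 GABA-A receptor subunits, 4 were higher, 3 lower and 1 not called (median 0.12), near the shares of all genes (40.3% higher and 25.2% lower). Gabra5, the alpha-5 subunit of extrasynaptic receptors for which the hippocampus is known, had 12.27, 12.39 and 12.54 against 10.60, 11.11 and 11.74. It was higher by 1.28 ± 0.04 (2.43-fold, adjusted p = 5.75e-28), by at least 1.00 against each region, and did not overlap. Gabra2 was higher by 0.70 ± 0.05. Gabra3 (-0.65), Gabrd, the delta subunit (-0.55), and Gabrb2 (-0.53) were lower, the last with no overlap but by only 0.22 on another probe set.

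**Figure D2:**
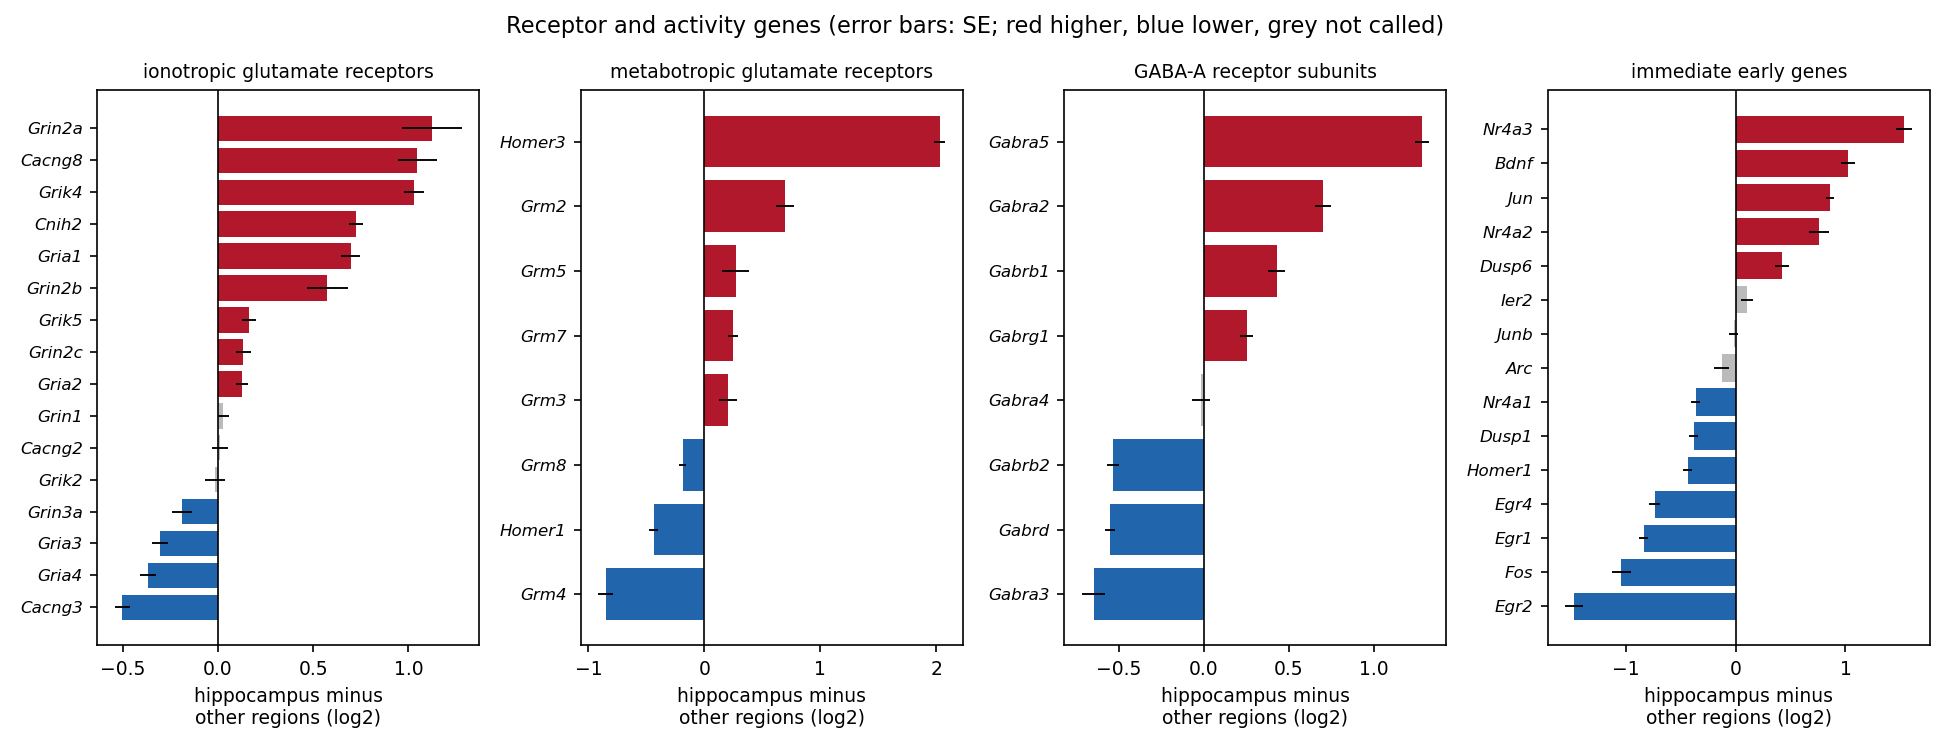
Hippocampus minus the mean of the 4 other regions (log2, bars with SE) for genes of 4 lists, in red where higher, blue where lower and grey where not called. Each list holds members on both sides of 0: Homer3 (2.03) against Grm4 (-0.85), Gabra5 (1.28) against Gabra3 (-0.65), and Nr4a3 (1.53) against Egr2 (-1.47).

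Of 38 potassium channel genes, 11 were higher and 18 lower (median -0.05), against 40.3% and 25.2% of all genes. Kcng2, a silent subunit that modifies Kv2 channels, was higher by 1.24 ± 0.06 and Kcnj6, the GIRK2 channel opened by inhibitory receptors, by 1.12 ± 0.06, both above all other arrays. Lower were the leak channel Kcnk2, TREK-1 (-1.56 ± 0.06), the sodium-activated channel Kcnt1 (-1.38 ± 0.04) and Kcna5 (-1.35 ± 0.06). Kcnt1 was apart, with 8.87, 9.00 and 9.22 in hippocampus and 10.03, 10.36 and 10.77 elsewhere, and its difference lay between -1.22 and -1.56 in all 4 regions. Other probe sets gave smaller values, of -0.22 for Kcnk2, of -1.20 and -0.29 for Kcnt1 and of 0.51 for Kcnj6.

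Of 23 calcium signalling genes, 11 were higher and 8 lower (median 0.09), not far from the 40.3% and 25.2% of all genes. Camkk1, which switches on other calmodulin kinases, was higher by 0.99 ± 0.03 and Prkca, a protein kinase C, by 0.73 ± 0.04, both without overlap. The plasticity kinase genes Camk2a and Camk2b were higher by 0.44 ± 0.07 and 0.46 ± 0.07, and Itpka by 0.54 ± 0.04. Camk2d (-0.72), Camk4 (-0.51) and Plcb4 (-1.04) were lower. Outside this list, Dgkg, a diacylglycerol kinase, was 3.11-fold higher, with 12.23 to 12.44 against 10.18 to 11.60.

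The 2 corticosteroid receptors differed from each other. Nr3c2, the mineralocorticoid receptor, had 11.46, 11.61 and 11.72 in hippocampus and 9.50, 10.12 and 10.34 elsewhere. It was higher by 1.49 ± 0.04 (2.80-fold, adjusted p = 5.59e-32) and by 1.33 to 1.75 against single regions, with no overlap. Nr3c1, the glucocorticoid receptor, had a difference of -0.02 and was not called. Over the list of 10, 4 were higher, 3 lower and 3 not called, near the shares of all genes (40.3% higher and 25.2% lower). The other higher genes were Hsd11b1, which regenerates active corticosterone (0.59 ± 0.04), Sgk1, a kinase induced by it (0.54 ± 0.05), and Fkbp5, a chaperone of the receptors (0.33), while the stress peptide Crh (-0.88 ± 0.08) and its binding protein Crhbp (-0.66 ± 0.07) were lower.

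Activity-regulated genes went both ways, with 5 of 15 higher and 7 lower, against 40.3% and 25.2% of all genes. Nr4a3, an orphan nuclear receptor, was higher by 1.53 ± 0.08 (11.37, 11.60 and 11.75 against 9.13, 10.07 and 10.70), Bdnf, the neurotrophin, by 1.02 ± 0.06, and Jun by 0.86 ± 0.04. Lower were Egr2 (-1.47 ± 0.08), Fos (-1.05 ± 0.09), Egr1 (-0.84 ± 0.04) and Egr4 (-0.74 ± 0.05). Fos had 8.17, 8.81 and 9.19 in hippocampus against 8.54, 9.83 and 10.55, and it was lower than every region on average, from -0.65 against amygdala to -1.41 against accumbens. Arc, the synaptic immediate early gene, was not called (-0.13). Other probe sets gave smaller values for 3 of these genes: -0.04, not called, for Fos, 0.10 for Bdnf, and 0.32 and 1.23 for Nr4a3.

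Among 17 receptors for serotonin, acetylcholine and noradrenaline above the filter, 5 were higher and 8 lower (40.3% and 25.2% over all genes). Adra1d, the alpha-1D adrenoceptor, was higher by 1.44 ± 0.08 but stood at the frontal cortex level (-0.05). Adra1b (-1.49 ± 0.10) and Htr2a (-1.26 ± 0.07) were lower. Htr4 was higher by 0.69 ± 0.07 on 1 probe set, with a second probe set near 0.

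Signalling genes of the Wnt pathway, which drives hippocampal growth in the embryo, mostly differed little: 5 of 21 were higher, 5 lower and 11 not called (median 0.00). The shares of all genes were 40.3% higher and 25.2% lower. The ligand Wnt4 was the exception in size, with 10.01, 10.18 and 10.55 against 7.27, 8.19 and 9.31, a 3.90-fold difference (1.96 ± 0.06, adjusted p = 7.70e-30) with no overlap. The ligand Wnt2 was higher by 0.62 ± 0.04 and the receptor Fzd1 by 0.64 ± 0.04, the latter by 0.04 against amygdala. Dkk3 was higher by 0.94 ± 0.04 but stood near the frontal cortex (-0.12), and the secreted inhibitor Sfrp1 was lower (-0.46).

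No marker of adult neurogenesis was called higher on the probe set that represents it. Of 7 measured, 4 were lower and 3 not called: Stmn1 (-0.48 ± 0.02), Marcksl1 (-0.47 ± 0.03), Dcx, doublecortin of young neurons (-0.19), and Tubb3 (-0.15) were lower. Other probe sets of 2 uncalled members were higher, by 0.25 for Sox4 and 0.18 for Sox2. Under the filter, Igfbpl1 was higher by 0.60 ± 0.08 and Draxin by 0.26 ± 0.07 in the fit without it. In that fit Sox11 (-0.27 ± 0.05) and the proliferation marker Mki67 (-0.13 ± 0.03) were lower. Top2a (-0.03) and Eomes (0.03) were not called. Mki67 was at 5.18 in hippocampus and 5.32 elsewhere, near the bottom of the scale.

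Other leading genes were on none of the lists above. Gpr161, a receptor of primary cilia (1.94 ± 0.05), Vav3 (1.81 ± 0.08), Fat4, an atypical cadherin (1.68 ± 0.06), Kctd4 (1.68 ± 0.06), Cst6, a cystatin (1.67 ± 0.05), and Kit, the receptor of stem cell factor (1.61 ± 0.06), were apart from all other arrays. Nts, the peptide neurotensin, was higher by 1.92 ± 0.08, but this mean covered a difference of 4.42 against frontal cortex and of 0.07 against accumbens. It belongs to a list of 8 amygdala genes, of which 3 were higher and 5 lower (median -0.28), against 40.3% and 25.2% of all genes. Of the probe sets with no gene listed, the highest were 22.6-fold higher, with overlap, and 6.57-fold higher, without. The lowest were 11.0-fold and 4.18-fold lower, both below all other arrays.

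**Figure D3:**
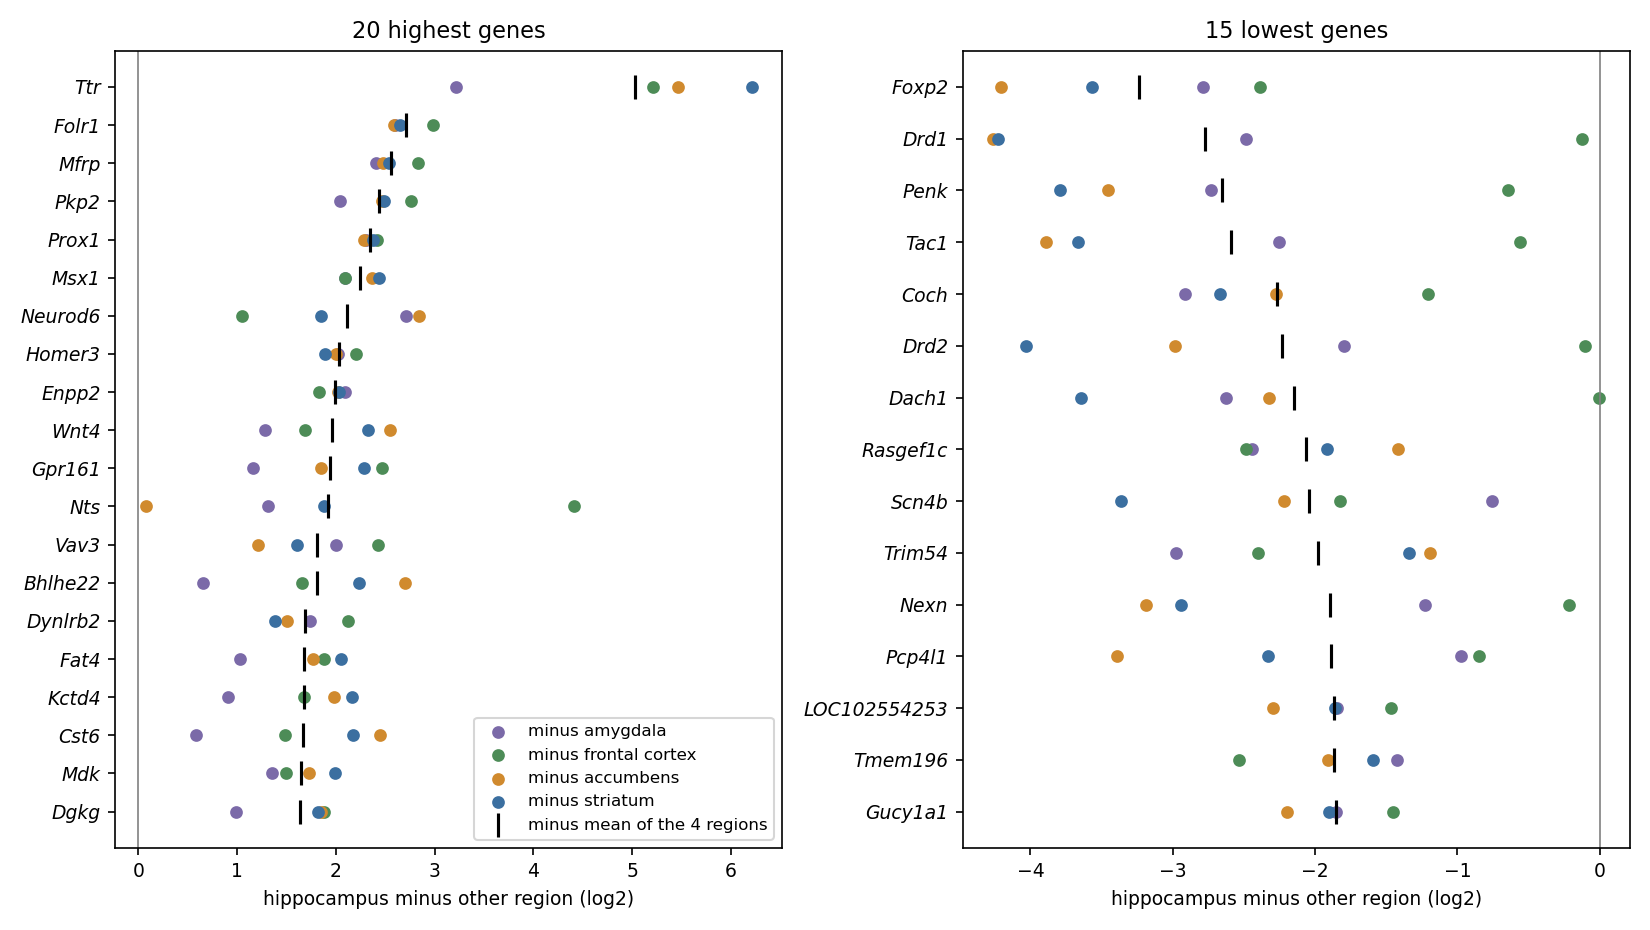
Difference of hippocampus from each other region (points) and from their mean (bar), in log2, for the 20 genes with the highest and the 15 with the lowest difference. Prox1 and Homer3 were nearly equally far from all 4 regions, Nts reached 0.07 against accumbens, and Drd1, Drd2, Dach1 and Nexn lay close to 0 against frontal cortex.

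The lower genes were led by Foxp2 and by genes of medium spiny neurons, the main cell type of striatum and accumbens. Foxp2 had 5.35, 5.85 and 6.17 in hippocampus against 7.79, 8.88 and 10.29, with no overlap among the arrays kept. It was 9.44-fold lower (-3.24 ± 0.07, adjusted p = 2.58e-33 in limma). Arrays had been left out for such values of Foxp2, so neither its separation nor its p-value is a test. Its hippocampal values lie well under the filter limit of 7.68, and the background there was not measured. It was lower than frontal cortex by 2.39 and than accumbens by 4.21.

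All 21 measured medium spiny neuron genes were lower, 16 of them by at least 2-fold, and their median was -1.24. The largest were the dopamine receptors Drd1 (-2.77 ± 0.11) and Drd2 (-2.23 ± 0.12) and the peptides Penk, proenkephalin (-2.66 ± 0.07), and Tac1, the substance P precursor (-2.59 ± 0.10). Drd1 had 7.88, 8.26 and 8.54 in hippocampus and 8.01, 11.50 and 12.97 elsewhere, and the overlap lay with frontal cortex, where the difference was -0.12. Drd2 differed from frontal cortex by -0.10, Ppp1r1b, the dopamine-regulated phosphatase inhibitor, by -0.24, and Rgs9 by 0.17. Of the 21 genes, 5 were called lower than each single region. Meis2, Rasd2, a striatal GTPase (-1.54 ± 0.08), and Arpp21, a phosphoprotein (-1.25 ± 0.07), were the members whose 9 hippocampal arrays lay below all others.

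Interneuron genes were mostly lower, with 10 of 13 lower, 1 higher and 2 not called (median -0.45). The peptides Sst (-0.70 ± 0.04) and Npy (-0.80 ± 0.04) lay below all other arrays, at 11.26 to 11.66 against 11.92 to 12.39 for Sst. The GABA transporter Slc32a1 was lower by 0.94 and the synthetic enzymes Gad1 and Gad2 were lower by 0.39 and 0.45. Against frontal cortex, Gad1 differed by -0.06, Gad2 by 0.23 and Slc32a1 by -0.11. Pvalb, of fast-spiking interneurons, was higher (0.47 ± 0.06) but lower than frontal cortex by 0.99.

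Of 17 cortical projection neuron genes, 9 were lower and 7 higher (median -0.10), the latter near the 40.3% of all genes. Lamp5 had 10.82, 10.92 and 11.19 against 11.52, 12.49 and 13.66 and was 2.81-fold lower (-1.49 ± 0.04), with no overlap. Mef2c (-1.11 ± 0.05), the upper-layer factor Cux2 (-1.05 ± 0.07) and Ccn2 (-1.15 ± 0.07) were also lower. Scn3b, a sodium channel subunit, was higher by 0.97 ± 0.04 and apart, and Fezf2 was higher by 0.93 ± 0.08 but below frontal cortex by 0.19.

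Of the lower genes outside the lists, Dclk3, a kinase related to doublecortin (7.67, 7.77 and 8.02 against 9.16, 9.59 and 10.20), was 3.59-fold lower. Tpbg, the trophoblast glycoprotein (-1.79 ± 0.05), Rprm, a cell cycle inhibitor (-1.81 ± 0.07), Gucy1a1, a subunit of the nitric oxide receptor (-1.85 ± 0.06), Trim54 (-1.98 ± 0.08) and Rasgef1c (-2.07 ± 0.07) were below all other arrays as well. Each of these 6 genes was lower than each region by more than 1.

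**Figure D4:**
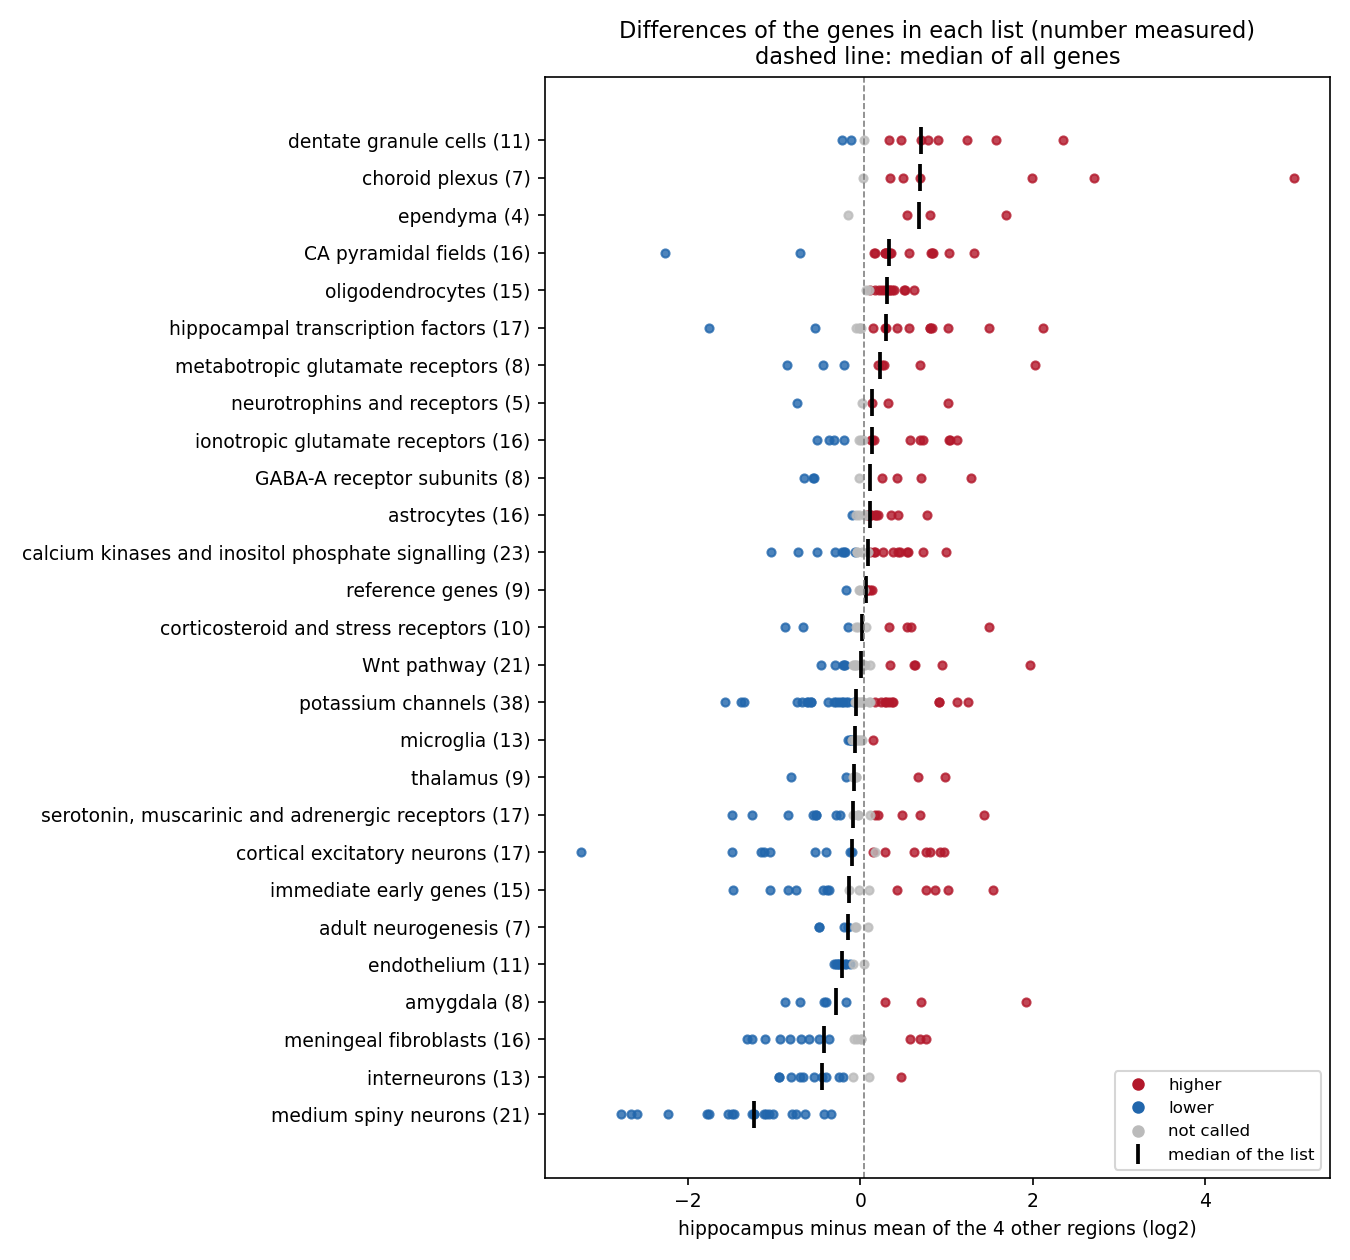
Hippocampus minus the mean of the 4 other regions (log2) for the measured genes of each list except the pineal one, a point per gene coloured by its call. A bar marks each list's median and a dashed line the median of all genes, 0.041. Dentate granule cell genes (0.70) lie at the top and medium spiny neuron genes (-1.24) at the bottom.

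Choroid plexus genes gave the 2 largest higher differences among genes above the filter. Ttr, transthyretin, the main secreted protein of that tissue, had 13.42, 14.91 and 15.04 in hippocampus against 7.68, 8.41 and 14.68, a 32.6-fold difference (5.03 ± 0.62, adjusted p = 2.65e-09). The groups overlapped: 6 of the 44 other arrays, 3 of them of amygdala, read above the lowest hippocampal array. Folr1, the folate receptor of the plexus, had 8.30, 11.10 and 12.14 against 7.20, 7.99 and 9.36 (2.71 ± 0.24, 6.53-fold), and Enpp2, autotaxin, was 3.99-fold higher. Of 19 plexus genes, 17 were on the array and 7 passed the filter, of which 6 were higher and 1, Prlr, was not called. The mean level of these 7 ran from 9.98 to 11.70 in hippocampus, 9.33 to 10.44 in accumbens, 9.32 to 10.64 in amygdala, 8.93 to 10.65 in frontal cortex and 9.03 to 9.37 in striatum.

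Of the 10 plexus genes under the filter, Sostdc1 (4.22 ± 0.38) and F5 (3.17 ± 0.25) followed the same pattern in the fit without it, while Otx2 and Kcnj13 read near 7 in all regions. The hippocampal array of congenic rat 2 was the lowest for Ttr and Folr1 but the highest for Prox1. Mfrp (2.56 ± 0.22) and Msx1 (2.24 ± 0.14), leading genes that are on none of the lists, were also lower on that array than on the other 8: 7.92 against a median of 10.60 for Mfrp and 9.30 against 10.97 for Msx1. Whether their differences come from neural tissue of the hippocampus or from attached plexus was not tested.

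**Figure D5:**
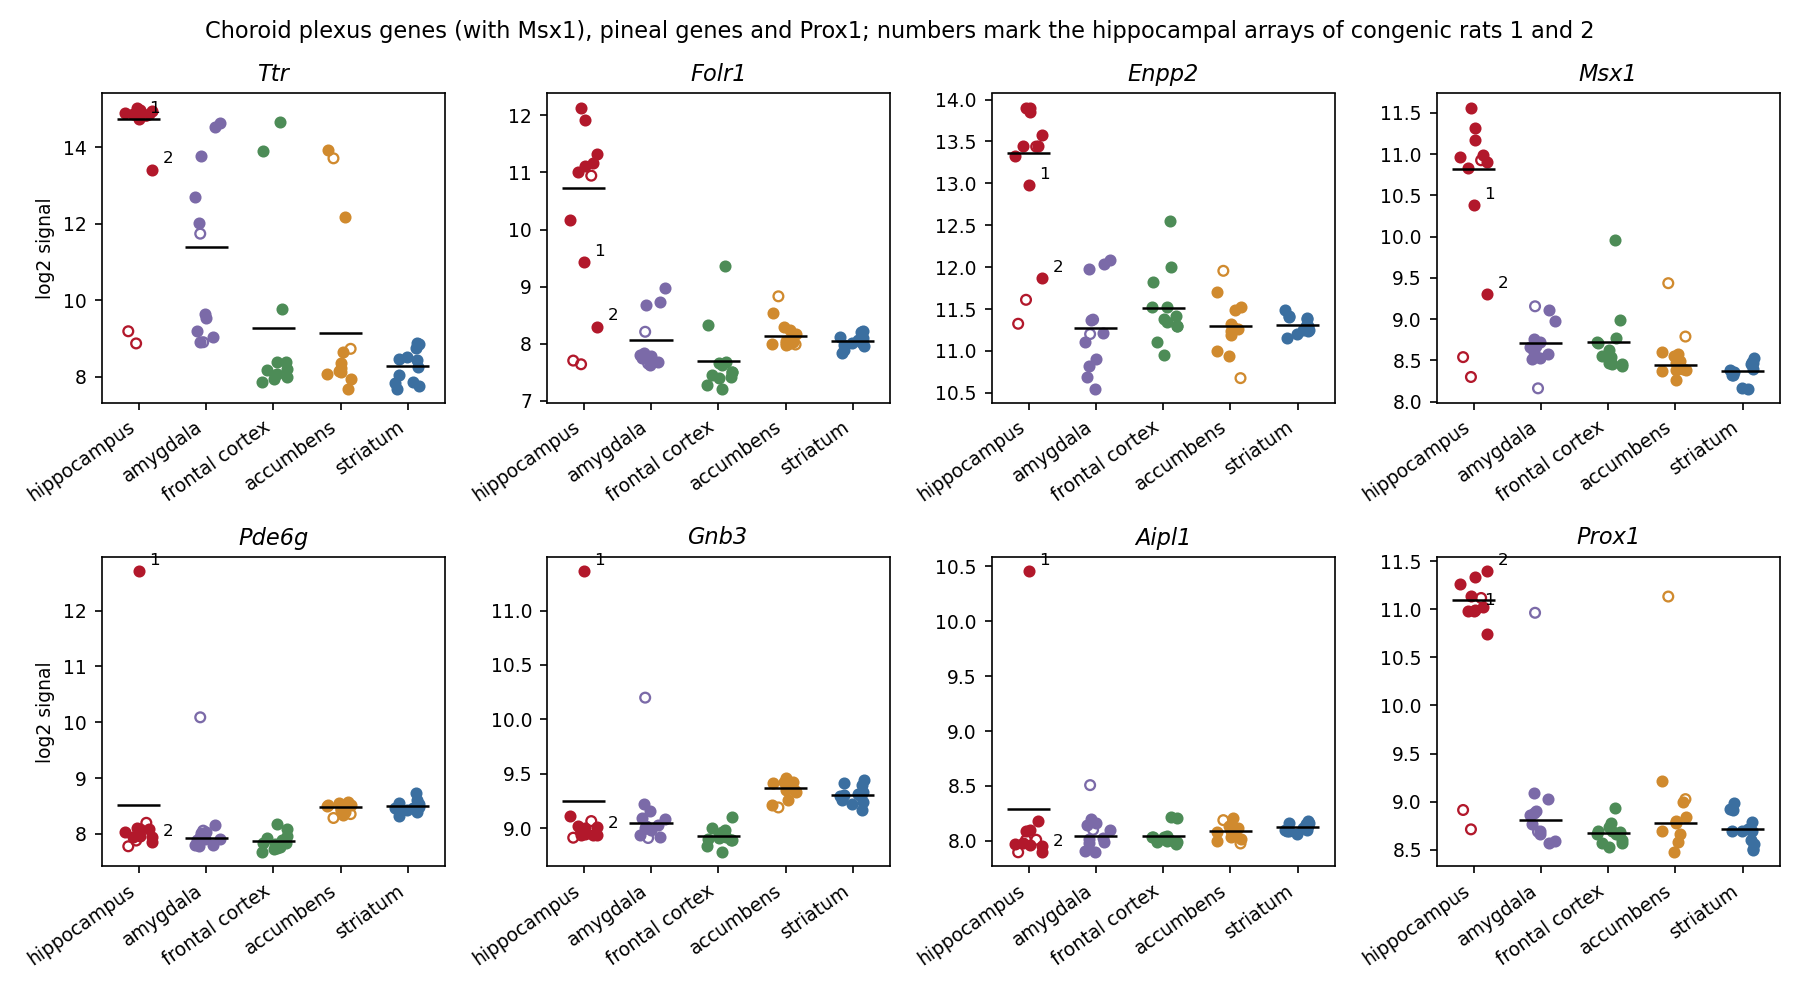
Log2 signal of 4 genes of the first row, Ttr, Folr1, Enpp2 and Msx1, and of the pineal genes Pde6g, Gnb3 and Aipl1 beside Prox1, on all 60 arrays by region (open circles: arrays left out; bars: means of the arrays kept). The hippocampal array of congenic rat 2 is low in the first row. That of congenic rat 1 is alone among the hippocampal arrays in its level of the pineal genes. Both lie with the other hippocampal arrays kept in Prox1. The left-out amygdala array of congenic rat 3 is also raised in Pde6g (10.09) and Gnb3 (10.2).

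Genes of glia, vessels and linings were counted as well, against 40.3% higher and 25.2% lower over all genes. Of 15 oligodendrocyte genes, 13 were higher and none lower (median 0.31), the most for Opalin (0.62 ± 0.06). Their mean level was 12.09 in hippocampus and 12.1 in striatum, against 11.88 in accumbens, 11.6 in amygdala and 11.58 in frontal cortex. Only 3 of them were higher than each region. Of 16 astrocyte genes, 11 were higher and 1 lower (median 0.11), with Gfap, the filament of fibrous astrocytes, at 0.78 ± 0.05. The mean level of the astrocyte genes was 12.98 in amygdala and 12.93 in hippocampus, and 3 were higher than each region. Of 4 ependymal genes, 3 were higher (median 0.68), led by Dynlrb2 of cilia (1.69 ± 0.12). Endothelial genes were lower in 9 of 11 cases (median -0.22), microglial genes lower in 5 of 13 and higher in 1, and meningeal fibroblast genes lower in 9 of 16 and higher in 3 (median -0.42), with Col1a2 at -1.31 ± 0.21. The 9 reference genes had a median of 0.06.

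Several genes of the pineal gland, which lies behind the hippocampus on the midline, were high on the hippocampal array of congenic rat 1. Pde6g, a phosphodiesterase subunit of photoreceptors and pinealocytes, read 12.71 there and 7.86 to 8.11 on the other 8 hippocampal arrays. Gnb3 read 11.36 against at most 9.11, Aipl1 10.46 against at most 8.18, and Asmt, the last enzyme of melatonin synthesis, 8.83 against at most 6.36. Crx (7.98), Sag (7.79) and Aanat (8.62) were also above the other hippocampal arrays there. Pde6b read 7.04, within the 6.73 to 7.15 of the other hippocampal arrays, and Rbp3 read 7.03 against 6.72 to 6.97, within the range of the other regions. The list was written after this array was seen. Without the array, all 42 leading genes kept their calls, and 158 in place of 154 probe sets were at least 2-fold higher.

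The comparison was also made within each line. In NP rats alone Prox1 was higher by 2.28 and in congenic rats alone by 2.39, Foxp2 differed by -3.19 and -3.28, and Nr3c2 was higher by 1.43 and 1.53. Of the 91 higher genes, 75 were at least 2-fold higher in both lines, as were 86 of the 97 lower genes on their side. The difference between lines in the hippocampal profile was called for 0 of 18625 probe sets in limma, with the smallest adjusted p at 0.27, although 2130 (11.4%) had an unadjusted p under 0.05. Over the 188 genes past the 2-fold limit, that difference (congenic minus NP) ran from -1.54 to 0.62 with a median size of 0.10. The low end of that range is Folr1, which was higher by 3.56 in NP and by 2.02 in congenic rats. Its hippocampal signal was lowest in congenic rats 1 and 2, at 9.43 and 8.30. Congenic rats 4, 9 and 10 read 11.32, 11.11 and 10.17, and the NP rats 11.00 to 12.14.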

How the data were processed

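RNA of each rat and region was labelled and hybridised separately, per the labels' protocols. The values used are the authors' deposited log2 signals per probe set; the summarisation and normalization behind them are not given in the sources used here. Array medians ran from 8.23 to 8.35, and no control for the scanner background was at hand. The number of arrays limits the precision. From 31042 probe sets without controls, 18625 were kept whose mean over all 60 arrays reached the 40th percentile, 7.68. Of the 31042, 20826 had 1 gene symbol in the platform annotation, 436 several and 9780 none listed, and 20758 symbols matched the RefSeq gene table. A gene with several probe sets is represented by the one with the highest mean; of 187 named genes, 52 had 71 other probe sets, 8 of them of opposite sign.

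Region and rat were fitted with limma 3.58.1 in R 4.3.3 (lmFit and eBayes, 37 residual degrees of freedom) over the 53 arrays kept, and p-values were adjusted by Benjamini-Hochberg over all probe sets kept. Higher than each region means that the largest of 4 pairwise p-values, adjusted, passed 0.05 with all signs equal. Fold is 2 to the power of the log2 difference. The rat numbers pair the regions, since the titles give each rat's number; arrays of a rat correlated at 0.053 after the group means. The 7 arrays left out were chosen from these expression values. Genes named are Prox1, Neurod1, the 20 highest and 15 lowest by difference among those called at 2-fold, the 10 farthest above and the 10 farthest below their nearest region (together 42 leading genes), up to 6 per list by size, the 10 most variable over hippocampal arrays, and the 5 with the smallest p for the line difference. Other list members and all genes under the filter were chosen after their values were seen. The members and lists were chosen with earlier results of these data known. Columns of values without a sample numbered 0. Figures were drawn with matplotlib 3.10.9; the fits were tested on simulated data.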

Additional observations from a re-analysis of the deposited data

Results flagged for a closer look

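In 26 of 187 named or listed genes, 1 of the 9 hippocampal arrays lay farther from its nearest neighbour, relative to the range of all 9, than the critical value of Dixon's test allows. Chance flags about 1 in 20 groups that were not picked for their spread. Of the 10 genes chosen as the most variable over these arrays, 8 were flagged, and that rate does not apply to them. Of the other 177, 18 were flagged. Most of these arrays were those of congenic rats 1 and 2.

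The hippocampal array of congenic rat 2 was the lowest for the choroid plexus genes Ttr (13.42), Enpp2 (11.87) and Slc13a4 (8.65), and for Mfrp (7.92), the cilia gene Dynlrb2 (9.15), Igfbp2 (10.42), Calb2 (9.72), Foxp2 (5.35) and Tpbg (6.91). It was the highest for Homer3 (10.55), Wnt4 (10.55), Sema5a (11.51), Dock10 (11.45) and the microglial protease Ctss (13.28).

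The hippocampal array of congenic rat 1 was the highest for the pineal and photoreceptor genes Pde6g (12.71), Gnb3 (11.36) and Aipl1 (10.46), for Cplx3 (9.95), Alox15 (10.94), Arhgap24 (10.21) and Adra1b (9.14), for the collagens Col1a2 (9.54) and Col3a1 (9.39), and for Neurod1 (11.24). Sgk1 was highest in NP rat 7 (12.54), and the endothelial gene Esam was lowest in congenic rat 10 (9.61).

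Signals above those of the other regions also appeared on arrays that were left out. Prox1 read 10.96 on the array labelled amygdala of congenic rat 3 and 11.13 on the array labelled accumbens of NP rat 8, against at most 9.22 on the fitted arrays of other regions. Of the 91 genes higher in hippocampus, 68 and 61 were at least 2-fold above the other regions on these 2 arrays, against 75 to 88 on the 9 hippocampal arrays, and 3 and 1 on the arrays labelled hippocampus of the same rats. Pde6g read 10.09 on that amygdala array, against at most 8.73 on the fitted arrays of other regions.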

How the results depend on the processing

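Fitting all 60 arrays gave 6162 probe sets higher and 3951 lower, but 85 and 82 at 2-fold, all of them among the 154 and 157, and 448 higher and 182 lower than each region. Without the signal filter 9720 were lower, and with the filter at the 60th percentile 2758 were lower and 100 at least 2-fold higher. A test against a 2-fold difference called 96 higher and 86 lower. Quantile normalization gave 5732 higher and 5829 lower, and no replicate block, which sets the pairing by rat aside, gave 7154 and 4869, with 157 and 156 at 2-fold. Leaving out each rat gave 154 to 158 probe sets at least 2-fold higher, 151 to 164 at least 2-fold lower, 1128 to 1242 higher and 673 to 739 lower than each region, and 0 to 2 calls for the line difference, the 2 without rat 12. The 42 leading genes kept direction and call under each of the 29 alternatives run per gene, except that 12 of them fell under the 60th percentile filter and have no value there. Of 187 genes, 144 kept their call wherever they had a value. Direction was checked only for the 175 genes called in the main fit. Reversed were Misp3 (0.000127) in NP arrays alone, Ppig (0.0101) and Hdac2 (0.0157) in congenic arrays alone, Aif1 (0.0235) without amygdala and B2m (-0.0377) without striatum, all small. Leaving out the hippocampal array of congenic rat 1 or 2, or adding that of NP rat 11, were alternatives chosen after seeing the data. For signals below the filter limit the true size of a difference is the least certain, since the background was not measured.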

Other observations

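Among genes under the signal filter, a few more differed in the fit without it. Cfap144, of the ciliary axoneme, was higher in hippocampus by 2.17 ± 0.09 (lowest, median and highest 8.21, 9.26 and 9.53 against 6.33, 6.88 and 7.42 elsewhere), Ak7, an adenylate kinase of cilia, by 1.58 ± 0.08, and Cdhr4 by 1.44 ± 0.09, all without overlap. Spag16, an ependymal cilia gene of the lists, was not called (-0.01). Chat, which makes acetylcholine, was lower (-1.26 ± 0.09), with 6.09, 6.38 and 6.56 in hippocampus against 6.09, 7.64 and 8.95. Cyp11b1, the steroid 11-beta-hydroxylase, was lower (-1.93 ± 0.08) and lay below all other arrays, at 5.80 to 6.50 against 6.69 to 9.80. These genes were picked after their values were seen. Of the genes under the filter past the 2-fold limit, 17 of 34 higher and 2 of 7 lower did not overlap between groups.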
